A study of Mus musculus with 2 samples.

Results

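The adenylyl cyclases and phosphodiesterases were taken as all genes with a protein-coding transcript whose symbol starts with Adcy or Pde followed by a digit. The rule found 36 genes, out of 21901 genes with a protein-coding transcript and 55536 annotated genes. By known role, 10 are adenylyl cyclases, 21 are catalytic subunits of cyclic nucleotide phosphodiesterases and 5 carry the name for other reasons. Those 5 are Pde4dip, a scaffold protein that binds phosphodiesterases, Pde6d, a chaperone of prenylated proteins, Pde6g and Pde6h, the inhibitory subunits of the photoreceptor enzyme, and Pde12, which cleaves a signalling oligonucleotide of the antiviral response.

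Total RNA from the left cerebral cortex was sequenced in 2 male mice, which form 1 group. They were adults of 8 to 10 months bred from 5xFAD and CAST parents, and each library was made from 300 ng of RNA. 5xFAD mice are a transgenic model of Alzheimer disease whose transgenes are driven by the neuronal Thy1 promoter, and CAST mice descend from wild-caught Mus musculus castaneus. Both animals are labelled as this cross, and whether each carries the transgenes was not looked at here. No non-transgenic group was analysed, so no effect of the transgenes can be read from these values. The animals have separate sample identities and share 1 donor label given at the level of the strain. With a single group there were no p-values, and the spread given is that between these 2 animals. In a bulk sample, fewer cells of a type and less RNA per cell cannot be told apart.

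Adenylyl cyclases make cyclic AMP (cAMP) from ATP, mostly in answer to G protein-coupled receptors, and guanylyl cyclases make cyclic GMP (cGMP). Phosphodiesterases hydrolyse one or both of these messengers and so set how far and how long a signal lasts. In forebrain neurons cAMP acts mainly through protein kinase A (PKA) and the exchange factors called Epac, and it is central to synaptic plasticity and to dopamine signalling in the striatum.

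The deposited tables gave 33925198 expected counts on genes in replicate 1 and 32380299 in replicate 2. Levels are in TPM, the deposited transcript abundance scaled to a fixed library total and corrected for transcript length, and a gene was called detected at 1 TPM or more in both libraries. The markers of neurons, astrocytes, oligodendrocytes, microglia and endothelium that were looked at were detected in full, 16 of 16. All 8 striatal markers were detected too, with a median of 40.3 TPM in replicate 1 and 47.5 TPM in replicate 2. Choroid plexus markers differed between the animals, with a summed level of 557 TPM in replicate 1 against 109 TPM in replicate 2, and all 6 were called higher in replicate 1. Of 6 markers of thalamus and hypothalamus, 2 were called higher in replicate 1, and the summed levels of all 6 were 67.6 and 50.6 TPM. Tcf7l2 and Calb2 were also lower in replicate 2 beyond counting error but short of 2-fold, at log2 ratios of -0.77 and -0.87. Rora and Gbx2 were within it. These calls use the 2-fold rule given below, by which 0.647% of all genes tested were higher in replicate 1. Deposited TPM were shifted upward in replicate 2 by a median of 0.13 on the log2 scale over the 19484 genes tested, so a higher TPM there of that size is no difference between the animals.

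Of the 36 members, 28 were detected (77.8%), against 59.6% of all genes with a protein-coding transcript. The median member level was 10.6 TPM, beside 4.01 TPM over all those genes, and 19 members averaged 10 TPM or more. Every catalytic family except the photoreceptor enzyme and the soluble cyclase had at least 1 detected member. The members spanned from 0.05 TPM for Pde6a to 153 TPM for Pde2a.

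**Figure D1:**
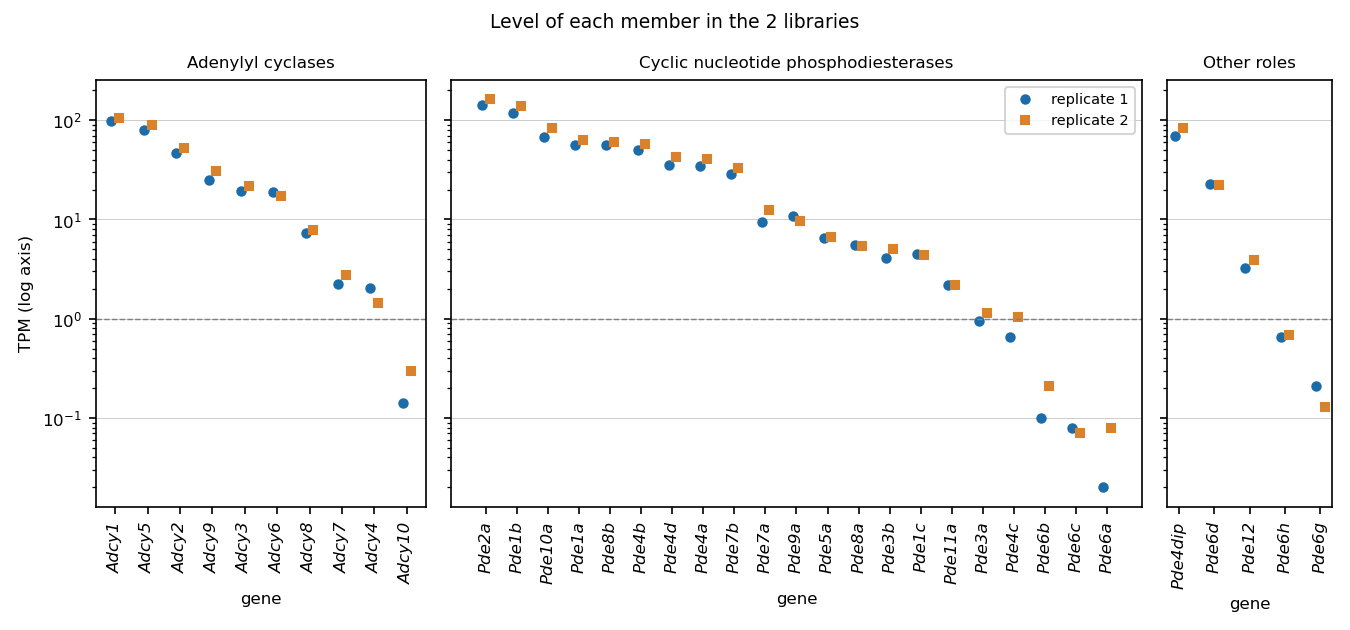
Level of each of the 36 members in TPM on a log axis, with 1 point per library (circles replicate 1, squares replicate 2) and a dashed line at the detection threshold of 1 TPM. Adcy1 leads the cyclases at 98.1 and 105 TPM, Pde2a leads the phosphodiesterases at 144 and 162 TPM, and the 3 catalytic photoreceptor subunits have the lowest means.

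Among the 10 cyclases, 9 were detected and 6 averaged 10 TPM or more. Adcy1, a calcium- and calmodulin-stimulated cyclase of neurons, was highest at 98.1 TPM in replicate 1 and 105 TPM in replicate 2 (mean 102 ± 5.08, SD, n = 2). Adcy5, a cyclase inhibited by Gi proteins and best known from striatal neurons, followed at 80.5 and 89.9 TPM (85.2 ± 6.70, SD, n = 2). Adcy2, which is stimulated by G protein beta-gamma subunits, stood at 47.3 and 52.0 TPM. In these values the 3 genes were separated, since the lower library of each was above the higher library of the next. In the deposited kallisto-format table Adcy1 (102.6 and 95.5 TPM) and Adcy5 (86.4 and 99.99 TPM) overlapped, and Adcy5 was higher in replicate 2.

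Adcy9, a widely expressed cyclase that responds poorly to forskolin, had 25.1 and 30.6 TPM. Adcy3, the cyclase of olfactory and neuronal cilia, had 19.2 and 21.8 TPM. Adcy6, the close relative of Adcy5, had 18.7 and 17.4 TPM, so the 2 members of this Gi-inhibited pair differed by a wide margin in both animals. Adcy8, the other calmodulin-stimulated cyclase of neurons, had 7.38 and 7.83 TPM, far below Adcy1 in both libraries.

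The 2 lowest detected cyclases were Adcy7, known from immune cells and microglia, at 2.25 and 2.74 TPM and Adcy4 at 2.03 and 1.44 TPM. Adcy10, the soluble cyclase that senses bicarbonate, was under the threshold at 0.14 and 0.30 TPM from 8 and 5 reads. No neighbouring pair among the 9 in the cyclase order overlapped between libraries. The order of all 10 was the same in each library alone. It was also the same by the mean of the kallisto-format table, but not in its replicate 2, where Adcy5 stood above Adcy1.

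The RefSeq promoters of the 2 leading cyclases are shown because most of each gene's TPM was placed on a single annotated start. Adcy1 lies at chr11:7063489-7178506 on the plus strand (mm10) and its first start took 99.88% and 99.81% of its TPM. Adcy5 lies at chr16:35154877-35305738 on the plus strand and its first start took 97.8% and 96.8%, or 88.1% and 73.7% in the kallisto-format table. The windows, at chr11:7063183-7063432 and chr16:35154614-35154863 on the plus strand of GRCm38.p6, overlap no annotated exon. Capitals mark the GC box GGGCGG on either strand, of which Adcy1 holds 3 and Adcy5 holds 4.
Adcy1: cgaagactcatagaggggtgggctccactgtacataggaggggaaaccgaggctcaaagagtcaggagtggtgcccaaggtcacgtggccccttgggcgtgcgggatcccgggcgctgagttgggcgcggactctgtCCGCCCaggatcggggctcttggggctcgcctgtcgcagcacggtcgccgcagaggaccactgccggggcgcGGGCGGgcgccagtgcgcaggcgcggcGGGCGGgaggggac
Adcy5: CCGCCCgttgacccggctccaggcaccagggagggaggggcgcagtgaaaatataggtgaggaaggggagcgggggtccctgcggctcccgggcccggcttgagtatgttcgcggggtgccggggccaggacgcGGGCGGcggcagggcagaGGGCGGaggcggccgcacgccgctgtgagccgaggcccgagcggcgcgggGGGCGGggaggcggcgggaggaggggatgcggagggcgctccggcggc
A GC box was found in 32.7% of all 32851 RefSeq windows of 250 bases before a start and in 18 of the 52 member windows, which belong to 27 of the 36 members. Neither window printed holds TGACGT, the core of the cAMP response element, on either strand. That motif was present in 6.47% of all windows and in 3 of the 52, and the TATA box TATAAA in 12.4% of all windows and in 2 of the 52. These matches describe letters in a window only.

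Of the 8 dual phosphodiesterases, which hydrolyse both messengers, 7 were detected, and they included the 2 highest members of the whole set. Pde2a, an enzyme that cGMP stimulates, was the highest member at 144 and 162 TPM (153 ± 13.2, SD, n = 2). Pde1b, a calcium- and calmodulin-activated enzyme of striatal and cortical neurons, had 118 and 138 TPM (128 ± 13.8, SD, n = 2). Pde10a, the enzyme that marks striatal medium spiny neurons, had 68.4 and 83.5 TPM. The 8 striatal markers summed to 562 and 655 TPM, and their part in these levels was not tested. A higher TPM in replicate 2 was common, at 25 of 32 members and 14046 of 19484 genes tested, and after scaling Pde2a was level between the animals within counting error (log2 ratio 0.02, 95% interval -0.01 to 0.06).

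The level of Pde2a rests on a choice made by the counting program. Of the 31-base words in its transcripts, 63.5% also occur in Gm45837, an annotated gene that overlaps it on the same strand of chromosome 7. Gm45837 received only 93.6 and 48.0 expected counts against 13274 and 13149 for Pde2a, and the split between them is uncertain. No other member shared more than 4.57% of its words with other genes, so members were otherwise well told apart from each other. An annotated gene on the opposite strand overlaps 21 of the 36, for example Cenpo with Adcy3 and Arf4 with Pde12. Overlap was taken over whole gene spans with their introns, and shared exons were not looked at. With no strand setting given in the sources used here, reads from any exon stretch that such a pair shares could not be told apart.

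Pde1a, the second calmodulin-activated enzyme, had 56.2 and 63.0 TPM. Its relative Pde1c was much lower at 4.49 and 4.43 TPM. Pde3b, a cGMP-inhibited enzyme known from insulin signalling, had 4.08 and 4.99 TPM. Its values overlapped those of Pde1c, so the 2 are not ordered. Pde11a, known in brain from the hippocampus, had 2.21 TPM in both libraries. Pde3a, the cardiac and vascular relative of Pde3b, crossed the threshold in 1 library only, with 0.96 and 1.13 TPM from 193 and 173 reads.

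Pde1b and Pde10a are shown by the promoter of the start that leads in these libraries. Pde1b lies at chr15:103503034-103530052 on the plus strand, and the first of its 4 starts took 84.5% of its TPM in both libraries. Pde10a lies at chr17:8525372-8986648 on the plus strand, and the fifth of its 11 starts took 64.0% and 64.6%. Its next start, that of Pde10a-213 with 748 bases, held 20.4% and 15.4% of the TPM but 2.43% and 1.86% of the expected counts. The kallisto-format table gave the leading start only 38.2% and 38.7%. The windows are chr15:103502784-103503033 and chr17:8801495-8801692 on the plus strand of GRCm38.p6, and the second lies in an intron of longer Pde10a transcripts and is 198 bases long, ending just before the annotated start. Capitals again mark GC boxes, 2 in Pde1b and 1 in Pde10a.
Pde1b: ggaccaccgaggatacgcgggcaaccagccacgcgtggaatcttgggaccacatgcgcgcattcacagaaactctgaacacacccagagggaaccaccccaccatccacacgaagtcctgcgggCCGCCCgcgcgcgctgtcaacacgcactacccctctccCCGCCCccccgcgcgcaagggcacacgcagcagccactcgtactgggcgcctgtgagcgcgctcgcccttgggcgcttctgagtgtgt
Pde10a: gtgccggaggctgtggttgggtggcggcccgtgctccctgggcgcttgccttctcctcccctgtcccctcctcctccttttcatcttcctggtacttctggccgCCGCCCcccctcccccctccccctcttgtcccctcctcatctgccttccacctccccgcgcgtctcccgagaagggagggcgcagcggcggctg
The Pde1b window has 67.2% G and C, beside 71.2% for Adcy1 and 78% for Adcy5.

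Of the 8 cAMP-specific phosphodiesterases, 7 were detected, and they were led by Pde8b. Pde8b, a high-affinity enzyme that is insensitive to common inhibitors, had 56.0 and 60.2 TPM. Its libraries overlapped those of Pde1a above it and of Pde4b below it, so this stretch of the order is not resolved. Pde4b, a rolipram-sensitive enzyme with roles in neurons and immune cells, had 49.6 and 57.9 TPM. Pde4d and Pde4a, its relatives of the same family, had 35.1 and 43.0 TPM and 34.5 and 41.0 TPM. The values of the pair overlapped between libraries, with Pde4d slightly above Pde4a within each. Thus 3 of the 4 Pde4 genes were present at levels of the same order.

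The fourth member of that family, Pde4c, had 0.66 and 1.03 TPM from 48 and 68 reads and was not detected by the rule. Pde7b, another high-affinity cAMP enzyme, had 28.4 and 33.2 TPM and was above its relative Pde7a in both libraries, at 9.53 and 12.5 TPM. Pde8a had 5.57 and 5.46 TPM, far below Pde8b. In each of the Pde1, Pde3, Pde4, Pde7 and Pde8 families the paralogs thus did not overlap between libraries, except Pde4d and Pde4a.

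Pde4a is shown by a pair of promoters because its TPM was placed mainly on 2 distant annotated starts in both libraries. The gene lies at chr9:21165714-21213248 on the plus strand. The first of its 4 starts, that of Pde4a-202, took 60.9% and 59.0% of its TPM, and the fourth, that of Pde4a-201, took 36.3% and 37.2%. The kallisto-format table gave the first start 55.5% and 56.3%. By expected counts Pde4a-202 held 74.3% and 72.7% and Pde4a-201 23.5% and 24.4%. Use of the starts themselves was not measured. The windows are chr9:21165464-21165713 and chr9:21196455-21196704 on the plus strand of GRCm38.p6, and the second lies in an intron of the longer transcripts. Capitals mark GC boxes, counted as 4 overlapping or separate matches at the first start and none at the fourth.
Pde4a start 1: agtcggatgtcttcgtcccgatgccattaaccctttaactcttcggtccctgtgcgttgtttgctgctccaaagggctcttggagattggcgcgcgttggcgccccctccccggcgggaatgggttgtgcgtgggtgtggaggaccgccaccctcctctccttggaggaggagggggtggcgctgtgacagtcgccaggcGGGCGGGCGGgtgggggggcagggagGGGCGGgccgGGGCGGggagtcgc
Pde4a start 4: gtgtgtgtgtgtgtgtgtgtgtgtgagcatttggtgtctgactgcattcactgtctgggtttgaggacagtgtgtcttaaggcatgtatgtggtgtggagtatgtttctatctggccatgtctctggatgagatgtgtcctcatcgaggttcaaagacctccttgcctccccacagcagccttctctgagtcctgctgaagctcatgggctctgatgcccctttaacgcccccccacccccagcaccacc
The G and C content was 68.8% at the first start and 53.6% at the fourth, and neither window holds TATAAA or TGACGT.

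The 5 cGMP-specific catalytic members were low. Pde9a, the enzyme with the highest affinity for cGMP, led them at 10.7 and 9.72 TPM, and its values overlapped those of Pde7a. Pde5a, the target of sildenafil, had 6.57 and 6.64 TPM. Of this, 3.94 and 3.47 TPM lay on Pde5a-203, a processed transcript of 418 bases, from 31.3 and 24.6 expected counts. The photoreceptor subunits Pde6b, Pde6c and Pde6a had 0.02 to 0.21 TPM from 2 to 12 reads per library. The 5 photoreceptor markers looked at were all under the threshold, with Crx at 0 reads in both libraries, which allows up to 0.0880 and 0.0922 CPM, that is 3 reads in the library's total. In the kallisto-format table Pde6a stood at 0.87 and 0.99 TPM, with 91.3% and 98.5% on Pde6a-202, so its level depends on the program, though it stayed under the threshold in both.

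Of the 5 members with other roles, Pde4dip had 69.6 and 84.1 TPM. Its values overlapped those of Adcy5 and of Pde10a between libraries. Within each library it stood below Adcy5 and above Pde10a, though by a small margin over Pde10a at 68.4 and 83.5 TPM. In the kallisto-format table Pde4dip had 65.0 and 61.5 TPM, below both Adcy5 and Pde10a. Its place against Pde10a thus depended on the format. Pde6d had 22.5 TPM in both libraries, while the catalytic subunits of the photoreceptor enzyme it was named for were near 0. Pde12 had 3.22 and 3.88 TPM. The inhibitory subunits Pde6h and Pde6g were under the threshold, with 5 to 11 reads per library.

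Across the 20 neighbouring pairs of the 21 phosphodiesterases, 7 overlapped between libraries. Those were Pde1a with Pde8b, Pde8b with Pde4b, Pde4d with Pde4a, Pde7a with Pde9a, Pde3b with Pde1c, Pde3a with Pde4c and Pde6c with Pde6a. This rule sets a value of one library against a value of the other, and a TPM shift between libraries can produce an overlap. Of the 21, 19 kept their rank in replicate 2 alone and 17 in replicate 1 alone. The leading 3, Pde2a, Pde1b and Pde10a, did not overlap with each other. In the kallisto-format table Pde10a was at 99.1 and 101 TPM, 1.32 times its level here, and still next after Pde1b.

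Summed over the 31 catalytic members, the cyclases took 32.1% of the TPM in replicate 1 and 31.1% in replicate 2 (31.6 ± 0.74, SD, n = 2). The dual phosphodiesterases took 42.6% and 43.4%, the cAMP-specific enzymes 23.4% and 24.0%, and the cGMP-specific enzymes 1.87% and 1.58%. Dual enzymes thus carried most of the phosphodiesterase transcripts, 62.7% and 62.9% of their sum. By expected counts, which are not corrected for length, the order changed: the cyclases held 50.2%, the dual enzymes 34.0%, the cAMP-specific enzymes 15.0% and the cGMP-specific enzymes 0.798%. The sum of a class is a sum of transcripts and says nothing of enzyme activity.

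Within the cyclases the calcium-stimulated group of Adcy1, Adcy3 and Adcy8 held 41.5% and 41.0% of the cyclase sum, and Adcy5 with Adcy6 held 33.0% and 32.6%. Of the whole catalytic sum, the calcium-stimulated group held 13.0% by TPM and 29.2% by expected counts, and the Pde1 family 19.3% and 12.6%. Within the phosphodiesterases the Pde1 family held 28.2% and 28.1%, Pde2 22.6% and 22.2%, and Pde4 18.9% and 19.6%. Pde10 held 10.8% and 11.4% and Pde8 9.69% and 8.99%. The remaining 6 families ranged from 6.25% for Pde7 in replicate 2 down to 0.0315% for the photoreceptor enzyme in replicate 1.

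**Figure D2:**
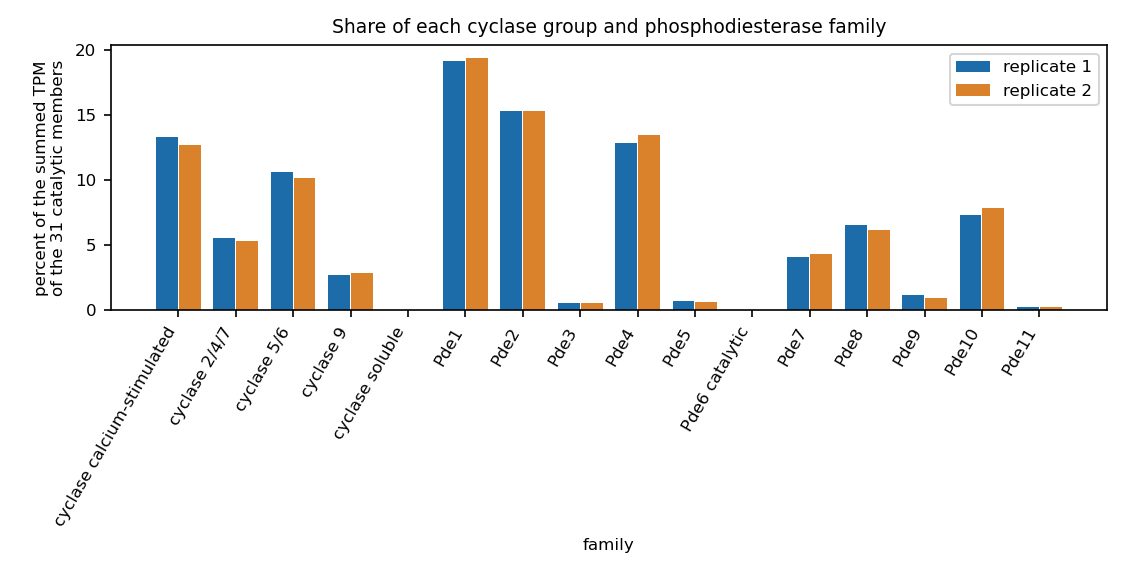
Share of each cyclase group and phosphodiesterase family in the summed TPM of the 31 catalytic members, in percent, with 1 bar per library. Pde1 (19.1% and 19.4%), Pde2 (15.3% in both), Pde4 (12.8% and 13.5%) and the calcium-stimulated cyclases (13.3% and 12.7%) are highest in both libraries.

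Many members have several annotated starts, and the deposited share of each transcript in its gene's TPM gives how that TPM was divided over them. Transcript starts within 100 bases were joined to one start. Of the 19 members at 10 TPM or more, 13 had 2 or more starts that each held 10% or more in both libraries. The other 6 had 1, and the same share over all genes was not computed. Some of these starts rest on short transcripts with few reads, such as that of Pde10a-213 above. Pde4dip-207, of 536 bases, held 13.8% and 12.1% of its gene's TPM but 1.26% and 1.13% of the expected counts. Pde4d, a gene of 1503514 bases on chromosome 13 with 17 starts, gave 40.6% and 41.2% to its start 13, that of Pde4d-206 and Pde4d-207. Pde4b, with 12 starts, gave 49.0% and 42.2% to its start 4 and 17.1% and 19.6% to its start 11. Most of the TPM of Pde8b was placed on 3 of 8 starts, with 34.1% and 35.1% on the first. Pde1a gave 72.5% and 74.8% to the second of 6 starts.

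Transcript shares could be read for 30 members with 10 or more expected counts in both libraries. Adcy2 has a single annotated transcript, Adcy2-201, with 100% by construction. In the RSEM-format table, Adcy1-201 took 99.88% and 99.81%, Adcy5-201 97.8% and 96.8%, and Pde6d-201 93.78% and 95.02%. Pde1b-201 took 82.4% and 81.2%, Pde1a-206 72.5% and 74.8%, and Pde7b-201 78.5% and 67.8%. Pde10a-202 took 60.03% and 60.54%, Pde4a-202 60.9% and 59.0%, and Adcy9-202 63.4% and 66.1%. Besides Adcy2, these 9 genes had 1 form in the majority in both libraries in that table. In the kallisto-format table this did not hold for Adcy9-202, for Pde10a-202, at 35.1% and 35.7%, or for Pde6d-201, at 46.1% and 61.7%, where the decay form Pde6d-202 took 48.4% and 34.7%.

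In the other members at this level no form held the majority of the TPM in both libraries of the RSEM-format table. Pde4b-207 took 49.0% and 42.2%, Pde4d-207 40.6% and 40.8%, and Adcy3-207 33.5% and 40.4%. By expected counts, Pde4b-207 held 67.3% and 64.3% and Pde4d-207 57.7% and 58.6%, a majority in both libraries. Adcy6-201 took 26.2% and 40.4%, but 55.4% and 58.4% in the kallisto-format table and 46.5% and 57.1% by expected counts. Pde9a-201 took 43.2% and 26.5% of a gene with 28 annotated transcripts, and Pde8b-207 26.4% and 26.8%. Pde4dip-201 took 20.3% and 20.4%, so the form with the highest mean share of that gene was a small part of its TPM. In replicate 1, Pde4dip-205 stood above it at 22.0%. By expected counts Pde4dip-205 led in replicate 1 at 37.5% and Pde4dip-202 in replicate 2 at 32.9%.

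The share of a leading form also depended on the program. Adcy9-202 held 10.3% and 16.6% in the kallisto-format table, where Adcy9-201 led, while the RSEM-format table gave Adcy9-201 0% in both libraries. Adcy9-202, Pde2a-209, Pde1b-201, Pde8b-207 and Pde6d-201 have no 31-base word of their own among the transcripts of the members. At least 5 of the 30 leading forms are thus told apart from others only by the model. The leading form differed between the formats for 3 of the 28 members with several transcripts (10.7%: Adcy9, Pde2a and Pde7a), against 18.6% of all such genes. It differed between the libraries for 5 of 28 (17.9%: Adcy4, Pde3a, Pde4c, Pde4dip and Pde9a), against 14.7%. At 28 members, neither share stands far from its background.

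**Figure D3:**
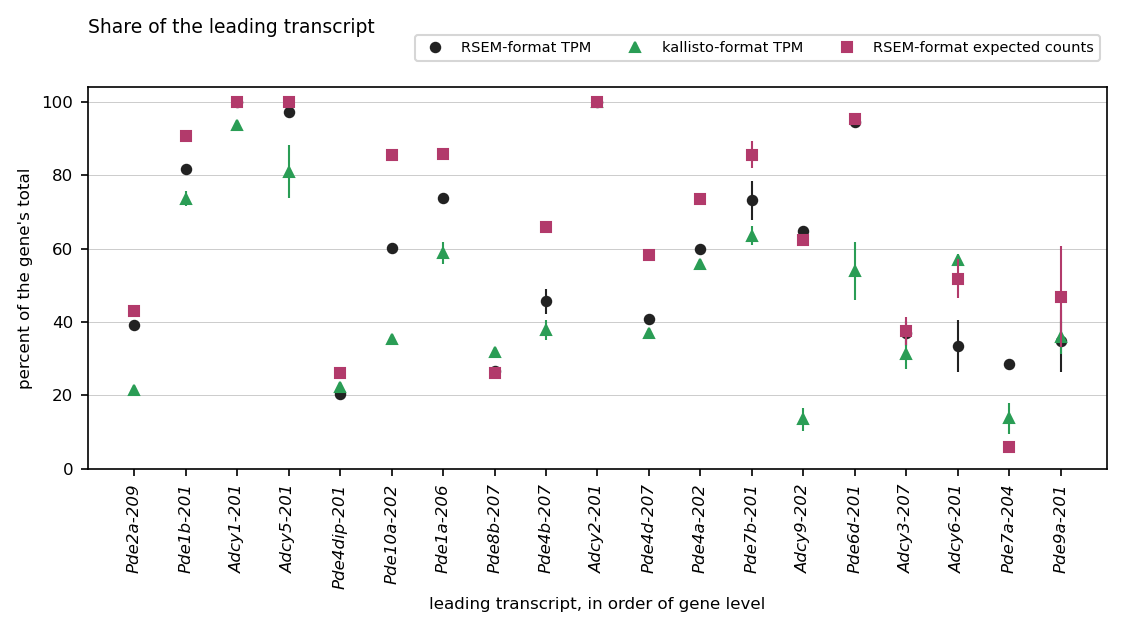
Share of the leading transcript in its gene, in percent, for the 19 members at 10 TPM or more in order of level, from the RSEM-format TPM (circles), the kallisto-format TPM (triangles) and the RSEM-format expected counts (squares). Symbols are the mean of the 2 libraries and vertical lines join them. Adcy9-202 lies at 63.4% and 66.1% in one format and 10.3% and 16.6% in the other, and Pde7a-204 lies at 5.97% and 5.79% by counts.

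In 3 of the 30 members the leading transcript was not typed as protein-coding, against 7.28% of all genes with such counts. Pde2a-209, typed as a target of nonsense-mediated decay, held 40.5% and 38.1%. It held 21.8% and 21.3% in the kallisto-format table, where the coding Pde2a-204 led. It has no word of its own, so the share of the decay form is uncertain.

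Pde5a-203, a processed transcript of 418 bases, held 59.9% and 52.3% of the TPM of Pde5a but only 6.29% and 4.75% of its expected counts, which were 31.3 and 24.6. Pde7a-204, a retained-intron form of 670 bases, held 28.8% and 28.3% of the TPM and 5.97% and 5.79% of the counts. A short transcript needs few reads for a large TPM, and in both genes the coding forms held most of the reads. All types other than protein-coding, decay targets included, were also summed and are called non-coding here. They held 50% or more of the TPM in both libraries for 2 of 30 members, against 7.78% of all genes. These were again Pde5a (60.4% and 52.9%) and Pde7a (56.1% and 53.8%). By expected counts the same types held 5.19% to 14.8% in Pde5a and Pde7a, and no member reached 50% in both libraries. Pde2a fell just short of the limit, at 50.2% and 49.3% of the TPM. Its non-coding types held 45.3% and 43.7% of the expected counts, and 28.7% and 30.9% in the kallisto-format table.

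The leading form changed between TPM and expected counts for 4 of 28 members (Pde4dip, Pde5a, Pde7a and Pde8b), against 11.3% of all genes with several transcripts. Adcy4 showed the same effect on a gene's level. Its reads numbered 83 and 97, yet its TPM was 2.03 and 1.44, since Adcy4-205, of 256 bases, took 55% of the TPM in replicate 1 from 4.35 expected counts and 0% in replicate 2.

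The 2 animals were compared member by member as the log2 ratio of replicate 2 over replicate 1 after scaling by edgeR's trimmed mean of M values (TMM), with intervals that cover counting error only. Of the 36 members, 32 had 10 reads in at least 1 library. A difference was called at 2-fold or more where the Clopper-Pearson interval of the read split, at an error rate of 0.001, excluded equal levels, and 0 of 32 members met this. Over the 19484 genes tested, 0.57% did so with replicate 2 higher and 0.647% with replicate 1 higher. The median member ratio was 0.03 on the log2 scale, beside -0.00 over all genes tested, with 22 members above 0 and 10 below.

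At any fold, the same interval excluded equal levels for 6 of 32 members (18.8%) with replicate 2 higher, against 4.25% of all genes, and for 0 with replicate 1 higher, against 4.51%. Genes with more reads have narrower intervals, and these shares were not matched on reads. Pde7a had the largest ratio, 0.28 (95% interval 0.13 to 0.43), from 655 and 776 reads. The others were Adcy9 at 0.15 (0.08 to 0.22), Pde4d at 0.15 (0.07 to 0.23), Pde10a at 0.14 (0.10 to 0.18), Pde1b at 0.11 (0.06 to 0.15) and Pde4dip at 0.11 (0.06 to 0.15). These differences are small and were read from 1 animal against 1. Beside them, the striatal markers had a median ratio of 0.05 and the choroid plexus markers -1.77, and their part in the 6 differences was not tested.

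DESeq2 size factors gave the same 6, and total counts added Pde4a. The kallisto-format counts gave 5 of the 6, without Pde7a, and Adcy1 in the other direction. Among the 28 members with 100 or more reads in both libraries, the next largest ratios after Pde7a were Pde6d at -0.16 (-0.33 to 0.01) and Pde8a at -0.16 (-0.34 to 0.03), neither outside counting error.

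**Figure D4:**
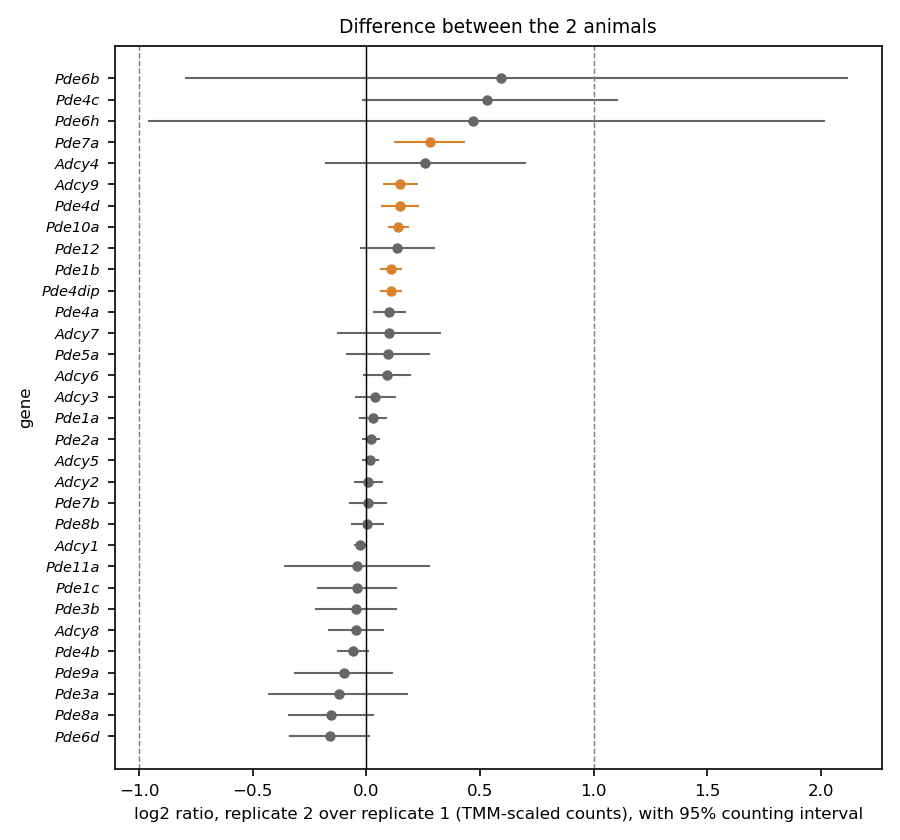
Log2 ratio of replicate 2 over replicate 1 (TMM-scaled expected counts) for the 32 members with 10 reads in at least 1 library, with 95% counting intervals and dashed lines at 2-fold. The 6 members in orange, from 0.11 to 0.28, are those whose interval at an error rate of 0.001 excludes equal levels, and all lie on the side of replicate 2.

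The rest of the pathway was described with 46 genes in 9 lists. Of these, 36 were detected, beside 59.6% of all genes with a protein-coding transcript. By the 2-fold rule 0 were called between the animals in either direction, beside 0.57% and 0.647% of all genes tested. Only 9 of the 10 guanylyl cyclases and 3 of the 6 cyclic nucleotide-gated channels had the reads to be tested. At any fold, the interval excluded equal levels for Akap7 (log2 ratio -0.21) and Akap8 (0.19), beside 4.51% and 4.25% of all genes in those directions. The targets of cAMP were abundant. All 6 PKA subunits were detected with a median of 150 TPM, led by the regulatory subunit Prkar1b at 277 and 306 TPM, and the catalytic subunit Prkacb had 185 and 191 TPM. The Epac gene Rapgef4 had 196 and 212 TPM, above every cyclase and phosphodiesterase, and its relative Rapgef3 had 22.5 and 22.2 TPM. Of the PKA inhibitors, Pkia had 68.7 and 77.4 TPM, and all 3 were detected.

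All 9 genes for A-kinase anchoring proteins, which tether PKA near its substrates, were detected at a median of 34.8 TPM. All 6 nuclear targets were detected, with the CREB coactivator Crtc1 at 52.2 and 58.6 TPM. Adcyap1r1, the receptor of the cyclase-activating peptide PACAP, had 50.3 and 53.7 TPM, and its ligand Adcyap1 had 6.86 and 7.15 TPM.

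On the cGMP side, 6 of 10 guanylyl cyclase genes were detected. The subunits of the nitric oxide receptor Gucy1b1 and Gucy1a1 had 66.8 and 75.2 TPM and 34.2 and 36.3 TPM. The natriuretic peptide receptor Npr2 had 22.0 and 25.2 TPM. The cGMP-dependent kinases Prkg1 and Prkg2 were lower, at 5.02 and 6.38 TPM and at 4.38 and 4.25 TPM. None of the 6 cyclic nucleotide-gated channel genes was detected, and Cnga1 and Cngb3 had 0 reads in both libraries.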

How the data were processed

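Total RNA from 2 libraries of 1 group was used. The authors deposited, per library, gene and transcript tables with RSEM's headers (expected counts, TPM and, per transcript, the percent of its gene's TPM) and a transcript table with kallisto's header (estimated counts and TPM). A deposited text description names mm10 and the M21 annotation; the aligner, program versions and strand setting were not given in the sources used here. Reads of a CAST cross counted against mm10 may be counted less well, which was not tested. Kallisto-format values were summed per gene. Replicates were compared on expected counts rounded to whole numbers and scaled with TMM (edgeR 4.0.16, R 4.3.3) or DESeq2 1.42.0 size factors, with 0.5 reads added, using Clopper-Pearson intervals of the read split at an error rate of 0.001 for calls and 95% for print. Intervals, and the limit of 3 reads allowed by a count of 0, cover counting error only, since reads are not independent molecules. Computations used Python 3.11.15 with scipy 1.17.1, and the ratio procedure was tested on simulated data. Shared sequence was counted as 31-base words over all annotated transcripts. Promoters are RefSeq's, cut before the first M21 start. Members averaging 1 TPM or more are given with both values, leading transcripts from 10 TPM, and ratios for called members and the 3 largest among those with 100 reads in both. The members and lists were chosen with earlier results of these data known.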

Additional observations from a re-analysis of the deposited data

How the results depend on the processing

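Detected members numbered 22 at a threshold of 5 TPM and 31 at 0.5 TPM. The count of 36 detected pathway genes did not change in the kallisto-format table and in each library alone. Nor did the cyclase order, taken by the mean in the kallisto-format table, where Adcy1 and Adcy5 changed places in replicate 2. Of 30 leading transcripts, 26 to 28 kept their place under the alternatives run. In the kallisto-format table, 12 of the 21 phosphodiesterases kept their rank, and the shares became 30.7% for cyclases, 23.2% for cAMP-specific and 44.3% for dual enzymes. By expected counts, which favour long transcripts such as Adcy1-201 (12259 bases), they became 50.2%, 15.0%, 0.798% for cGMP-specific and 34.0%. Members with 50% or more in non-coding types numbered 3 to 4 when 1 replicate was left out, against 2 in both, and 0 by expected counts, an alternative added after seeing the data together with the leading transcript by counts. Dropping the 2-fold limit raised the members called between the animals from 0 to 6. No paired analysis was possible because the 2 libraries form a single group. Leaving out a replicate of the comparison between the animals leaves no ratio, so it was not run. Genes under about 10 reads, such as Pde6a, Pde6c and Adcy10, could not be resolved at this depth.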
